A study of Mus musculus with 10 samples.

Results

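The autophagy and lysosome genes are 37 named genes, taken by symbol from 2 deposited gene tables, 1 of KrasT and 1 of MycT tumours, with 23924 usable genes each. They were grouped by role into 15 genes of the autophagy machinery (6 of the cargo receptor and ATG8 family and 9 of initiation and conjugation), 3 regulators and channels, 6 proteins of lysosomal membrane and lipid transfer, and 13 lysosomal hydrolases (8 cathepsins and 5 glycosidases and lipases). RNA was sequenced from whole flash-frozen mouse pancreatic tumours, grown as orthotopic transplants in athymic nude hosts, a strain without a thymus and so without most T cells. The groups were 3 KrasT tumours after 14 days of doxycycline at 100 ug/ml in drinking water with 2.5% sucrose, 3 KrasT tumours with 0 days of doxycycline, 2 MycT tumours after the same treatment and 2 MycT tumours with 0 days. Doxycycline turns tetracycline-regulated transgenes on or off, and the study's title concerns dormancy of pancreatic tumour cells in the absence of oncogenic drivers. The construction and promoter of each transgene are not stated in the labels, nor whether tumours of a model descend from 1 primary tumour. Sucrose is named for treated mice alone, and the labels list no doxycycline mouse without a tumour of these models, so effects of the drug, the sucrose and the transgene cannot be told apart.

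Autophagy wraps cytoplasm in a double membrane and delivers it to the lysosome. The ULK kinases and the Beclin 1 complex start the membrane, ATG5, ATG7, ATG12 and ATG16L1 attach ATG8 proteins (the LC3 and GABARAP families) to it, and receptors such as p62 bring in cargo. Lysosomal hydrolases then break the cargo down, and transcription factors of the MiT/TFE family (TFEB, TFE3, MITF) switch on genes of both steps. Pancreatic ductal tumours are known for high basal autophagy and lysosome activity, and macrophages are rich in lysosomal hydrolases.

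Values are FPKM, fragments scaled to gene length and library size, as deposited. All log2 changes are of FPKM + 1, doxycycline minus untreated, which understates changes of low genes. A gene was called at a limma adjusted p under 0.05 over all genes tested. Libraries differed in ways that touch these genes. Total FPKM was 513949 to 569272 in doxycycline KrasT libraries, against 789672 to 1018968 in untreated ones, and 546008 and 557227 in doxycycline MycT libraries, against 1126800 and 1517332 in untreated ones. Doxycycline KrasT replicate 1 and doxycycline MycT replicate 2 had the ribosomal RNA precursor Rn45s at 17238 and 20880 FPKM, against at most 2231 FPKM in the others. The summed FPKM of 15 macrophage markers was 7189.8, 1935 and 3114 in doxycycline KrasT tumours, against 1654, 323 and 369.6 in untreated ones, and 3195 and 6905 in doxycycline MycT tumours, against 3870.4 and 1586 in untreated ones. No macrophage marker was at 0 in any library. Summed FPKM of 11 ductal markers was 299.9, 1868 and 1586 in doxycycline KrasT tumours, against 2391.5, 18671 and 9377 in untreated ones, and 1986 and 919 in doxycycline MycT tumours, against 1349 and 484 in untreated ones, with no marker at 0 in any library. Libraries also stood apart by other tissue. Summed FPKM of 8 skeletal muscle markers was 5681 in doxycycline KrasT replicate 2 and 7324 in doxycycline MycT replicate 1, against at most 511 in any other library. For 8 acinar markers it was 13990.2 in doxycycline KrasT replicate 3, against at most 1653 elsewhere, and for 7 adipocyte markers it was 3357 in doxycycline KrasT replicate 1 and 1691 in doxycycline MycT replicate 2, against at most 479 elsewhere. Of 8 endothelial markers 7 rose in KrasT and 6 in the joint MycT fit, and all 8 were higher without overlap in both models. Of all genes, 8.46% were called higher in KrasT and 8.11% in the joint MycT fit, and 10.3% were higher without overlap in both models. The part of these tissues in the results was not tested. Because these are whole tumours, fewer cells of a type and less RNA per cell cannot be told apart.

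All 37 genes passed the filter on low values in both tables. In KrasT, 2 of 37 (5.41%) were called after doxycycline, Gabarapl1 and Ctsk, both higher. Of all genes tested, 16.7% were called, 8.46% higher and 8.25% lower, so the share of called autophagy and lysosome genes was below the background. At an unadjusted p under 0.05 there were 6 of 37, against 34% of all genes. The KrasT calls turned on single libraries: without doxycycline replicate 1 the 1 gene called was Ctsl, lower (background 7.91%), and without untreated replicate 1 there were 6, of which Gabarapl1, Ctsk, Ctss, Hexa and Map1lc3a were higher and Neu1 lower (background 33.3%). Without any other single KrasT library 0 were called. Quantile normalization (background 8.51%) and scaling to genes of at least 5 FPKM (background 15.3%) each called 3, Gabarapl1, Ctsk and Gaa, all higher, and library weights called 11, where 46.7% of all genes were called. In MycT, 0 of 37 were called by limma, where 0.039% of all genes were, and 14 of 37 had an unadjusted p under 0.05, against 33.4% of all genes. A joint fit over all 10 libraries, which shares 1 spread between the models, called 4 of 37 (10.8%) in MycT, all higher: Tfeb, Sqstm1, Gabarap and Wipi1. The background of that fit was 20.4%, with 8.11% of genes higher and 12.3% lower. These calls held in 7 (Tfeb), 4 (Sqstm1), 3 (Gabarap) and 6 (Wipi1) of the 10 fits that left out 1 library, and in 0 of the fits without either doxycycline MycT library. Scaled to the genes of at least 5 FPKM in every library, calls over all genes became 1589 higher and 353 lower in KrasT, in place of 1074 and 1047. In the joint MycT fit they became 1879 higher and 886 lower, in place of 979 and 1484, and 12 of the 37 genes were called (background 22.9%). All 12 were higher: Gabarap, Gabarapl1, Map1lc3a, Sqstm1, Atg7, Ulk1, Ulk2, Wipi1, Tfeb, Tfe3, Cln3 and Npc1. They include 8 of the 15 machinery genes and 0 of the 13 hydrolases. The hydrolases still had the larger median change in that fit, 1.46 against 1.07, with 13 of 13 positive, against 12 of 15 machinery genes. That scaling moved the median log2 change of all genes to 0.28, against -0.10 as deposited, in KrasT, and to 0.40, against 0.04, in MycT.

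**Figure D1:**
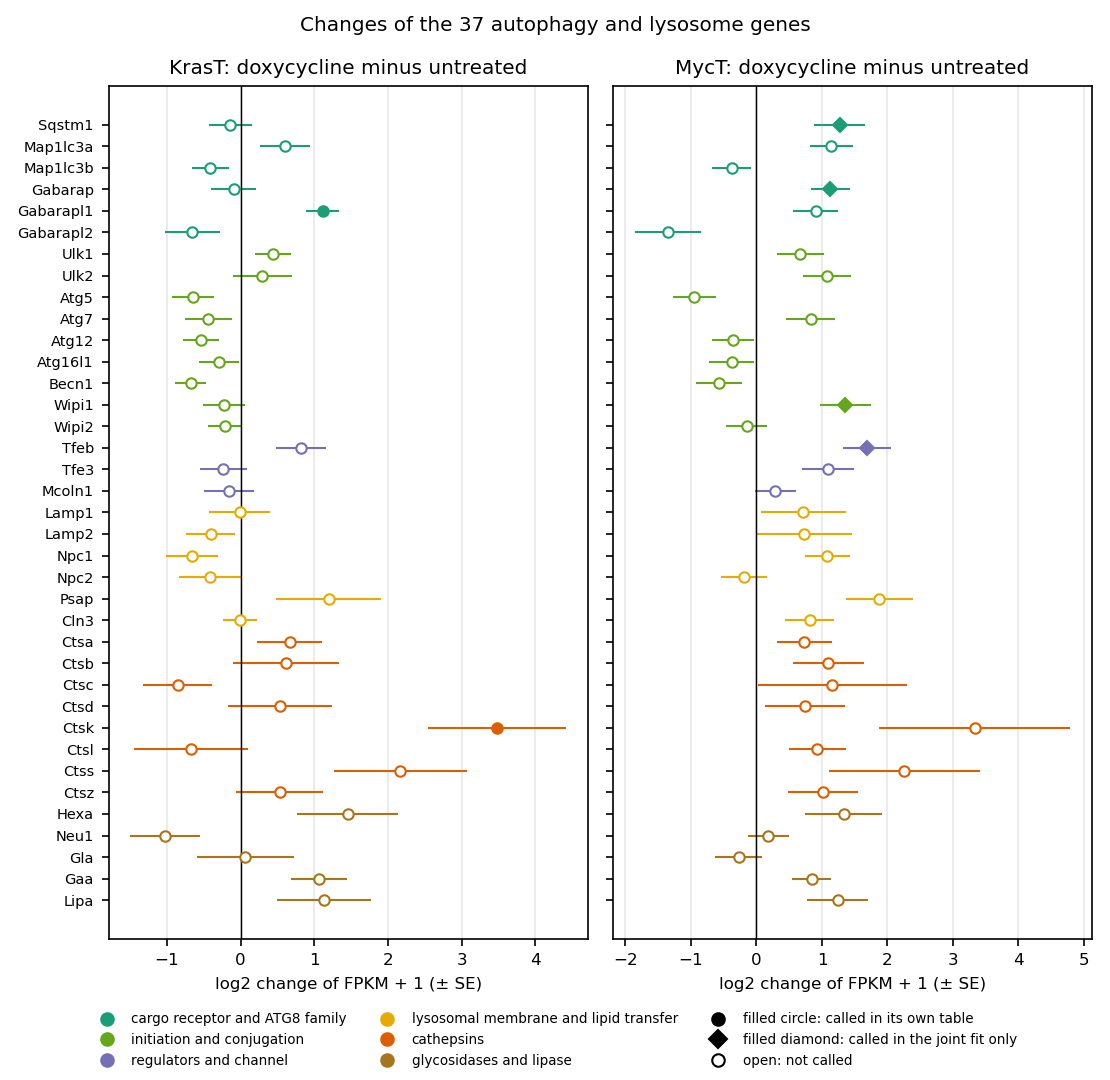
Log2 change of FPKM + 1 (doxycycline minus untreated, with the SE of the limma fit as bars) of the 37 genes in KrasT (left) and MycT (right), coloured by role. Filled circles (Gabarapl1 and Ctsk) passed in their own table, filled diamonds (Sqstm1, Gabarap, Wipi1 and Tfeb) passed only in the joint fit, and open circles did not pass.

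Groups that do not overlap give a second view. In KrasT the doxycycline libraries all lay above the untreated ones for 5 of 37 genes (background 16.8%) and all below for 3 (background 23%). In MycT, with 2 libraries against 2, they lay above for 24 (background 31.9%) and below for 7 (background 32.8%). The 24 genes are 64.9% of the 37 and the 7 are 18.9%. The 5 KrasT genes that were higher without overlap, Gabarapl1, Ulk1, Tfeb, Ctsk and Gaa, were also higher without overlap in MycT, where 10.3% of all genes were so in both models. The 3 lower ones, Atg5, Atg12 and Becn1, were likewise lower in MycT, where 13.7% of all genes were so in both. As shares of the 37 genes these are 13.5% and 8.11%.

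Among the 6 genes of the cargo receptor and ATG8 family, 1 rose in KrasT and 2 in the joint MycT fit. Gabarapl1, an ATG8 protein of the GABARAP branch, had 153, 146 and 169 FPKM in doxycycline KrasT tumours, against 85.2, 70.1 and 61.1 FPKM in untreated KrasT tumours. Its mean was 156 ± 11.8 FPKM after doxycycline, against 72.1 ± 12.2 FPKM untreated (SD, n = 3 each). All doxycycline libraries lay above all untreated ones, and Gabarapl1 rose (log2 change 1.11 ± 0.23 (SE), limma adjusted p = 0.0242). In MycT it had 68.4 and 86.6 FPKM in doxycycline MycT tumours, against 46.7 and 35.3 FPKM in untreated MycT tumours, again without overlap, but it did not pass (log2 change 0.91 ± 0.34 (SE), limma adjusted p = 0.146). The difference between the KrasT and MycT changes was 0.21 ± 0.37 (SE), limma adjusted p = 0.796. In the fits that left out 1 KrasT library, its change lay between 1.002 and 1.24, and the call held in 1 of 6, that without untreated replicate 1, with adjusted p from 0.00924 to 0.11. The 100 bases before its start site, shown because it is the autophagy gene called in KrasT, lie at chr6:129533092-129533191, plus strand of GRCm38.p6 in RefSeq. The whole window of 250 bases before and 50 after the start holds none of the 4 motifs described with the regulators, in the spellings given there, so no letters are in capitals.
Gabarapl1: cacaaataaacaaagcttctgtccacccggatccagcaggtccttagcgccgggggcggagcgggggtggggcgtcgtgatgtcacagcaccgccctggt

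Gabarapl2, a close relative of Gabarapl1, ran the other way. It had 71.8, 124 and 106 FPKM in doxycycline KrasT tumours, against 251, 114 and 129.5 FPKM in untreated KrasT tumours. The MycT model had 125 and 68.4 FPKM in doxycycline tumours, against 328 and 173 FPKM in untreated MycT tumours. Groups overlapped in KrasT and did not in MycT, and neither change passed (limma adjusted p = 0.265 in KrasT and 0.143 in MycT). Gabarapl2 was lower after doxycycline in both models under each of the 3 other scalings tried, with a change of -0.06 at the smallest in KrasT. The ratio of Gabarapl1 to Gabarapl2 within a library is not moved by a scaling factor per library. That ratio was 2.14, 1.18 and 1.60 in doxycycline KrasT tumours, against 0.339, 0.614 and 0.472 in untreated ones, and 0.548 and 1.27 in doxycycline MycT tumours, against 0.143 and 0.204 in untreated ones. Every doxycycline library lay above every untreated library of its model, and in KrasT the more abundant of these ATG8 transcripts was Gabarapl1 after doxycycline and Gabarapl2 in untreated tumours. Gabarapl1 made up 16.2% to 19.0% of the summed FPKM of the 5 ATG8 genes in doxycycline KrasT tumours, against 7.02% to 9.17% in untreated ones. In MycT it made up 9.64% and 12.9% after doxycycline, against 6.42% and 6.55% untreated. The ratio was formed after the values were seen and has no test.

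**Figure D2:**
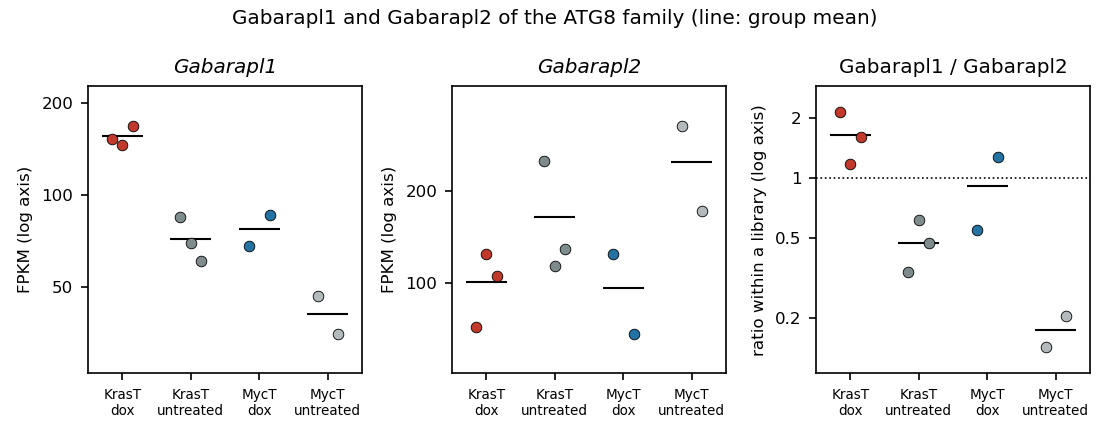
FPKM of Gabarapl1 (left) and Gabarapl2 (middle) and their ratio within each library (right), all on log axes; points are libraries (3, 3, 2 and 2 per group), lines are group means, and the dotted line marks a ratio of 1. The doxycycline ratios, 1.18 to 2.14 in KrasT and 0.548 and 1.27 in MycT, lie above the untreated ratios of the same model.

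The other ATG8 genes did not pass in KrasT. Gabarap, the most abundant of them, had 465, 270.5 and 368 FPKM in doxycycline KrasT tumours, against 499, 357 and 316 FPKM in untreated KrasT tumours, with overlapping groups and a change of -0.09 ± 0.31 (SE), limma adjusted p = 0.86. In MycT it had 320.3 and 335 FPKM in doxycycline MycT tumours, against 160.3 and 138 FPKM in untreated MycT tumours. Both doxycycline libraries were above both untreated ones, and Gabarap rose in the joint fit (log2 change 1.13 ± 0.34 (SE), limma adjusted p = 0.0453) but not in the MycT table alone (adjusted p = 0.0902). Map1lc3b, the LC3 protein usually followed as a marker of autophagosomes, had 195, 178 and 175 FPKM in doxycycline KrasT tumours, against 302, 189.5 and 252 FPKM in untreated KrasT tumours. Levels in MycT were 128 and 129 FPKM in doxycycline tumours, against 167 and 167 FPKM in untreated MycT tumours, lower without overlap. Its changes, -0.41 in KrasT and -0.38 in MycT, did not pass, and both turned to 0.02 and 0.07 when scaled to genes of at least 5 FPKM. Map1lc3a, a second LC3 gene, had 63.6, 80.3 and 71.4 FPKM in doxycycline KrasT tumours, against 76.3, 33.4 and 40.00 FPKM in untreated KrasT tumours. The MycT values were 68.3 and 50.7 FPKM in doxycycline MycT tumours, against 26.9 and 25.3 FPKM in untreated MycT tumours, higher without overlap. It passed in neither table (adjusted p = 0.263 in KrasT and 0.0977 in MycT by limma). The ratio of Map1lc3a to Map1lc3b within a library was 0.326, 0.450 and 0.409 in doxycycline KrasT tumours, against 0.253, 0.176 and 0.159 in untreated ones. It was 0.534 and 0.394 in doxycycline MycT tumours, against 0.161 and 0.151 in untreated ones, so groups did not overlap in either model. Map1lc3a and Map1lc3b changed in opposite directions in both models, so their ratio restates those changes and has no test. Copies of ATG8 genes elsewhere in the genome can share reads with them, and the placement of such reads is not stated.

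Sqstm1 codes for p62, the receptor that carries ubiquitin-tagged cargo into autophagosomes and is itself degraded there. Its values were 252, 133 and 153 FPKM in doxycycline KrasT tumours, against 187, 185 and 199 FPKM in untreated KrasT tumours, with overlapping groups and a change of -0.14 ± 0.29 (SE), limma adjusted p = 0.771. In MycT it had 102 and 116 FPKM in doxycycline MycT tumours, against 34.1 and 58.1 FPKM in untreated MycT tumours, and both doxycycline libraries lay above both untreated ones. Sqstm1 rose in the joint MycT fit (log2 change 1.27 ± 0.37 (SE), limma adjusted p = 0.0405) and not in the MycT table alone (adjusted p = 0.105). The KrasT change minus the MycT change was -1.41 ± 0.48 (SE), limma adjusted p = 0.154, so a difference between the models was not shown.

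Of the 9 initiation and conjugation genes, 0 passed in KrasT and 1, Wipi1, in the joint MycT fit. Becn1, which codes for Beclin 1 of the lipid kinase complex, had 42.1, 38.7 and 38.5 FPKM in doxycycline KrasT tumours, against 74.6, 58.5 and 60.9 FPKM in untreated KrasT tumours. Its MycT levels were 42.8 and 39.1 FPKM in doxycycline MycT tumours, against 50.6 and 74.6 FPKM in untreated MycT tumours. Both models were lower without overlap, with changes of -0.68 ± 0.22 (SE), limma adjusted p = 0.0736 in KrasT and -0.58 ± 0.35 (SE), limma adjusted p = 0.308 in MycT. Atg5, whose protein is joined to ATG12 in the enzyme that attaches ATG8 to lipid, had 17.03, 17.4 and 13.9 FPKM in doxycycline KrasT tumours, against 35.6, 19.7 and 23.9 FPKM in untreated KrasT tumours. For MycT these were 17.9 and 13.8 FPKM in doxycycline tumours, against 29.98 and 32.6 FPKM in untreated MycT tumours, and again no groups overlapped. Its changes did not pass (-0.64 in KrasT, adjusted p = 0.166, and -0.95 in MycT, adjusted p = 0.126, by limma). Its partner Atg12 had 19.9, 22.5 and 16.1 FPKM in doxycycline KrasT tumours, against 31.9, 23.9 and 30.3 FPKM in untreated KrasT tumours. In MycT the values of Atg12 were 17.6 and 13.9 FPKM after doxycycline, against 20.1 and 20.6 FPKM untreated, and its change there was -0.36 as deposited and 0.07 when scaled to genes of at least 5 FPKM. Becn1 and Atg5 stayed lower in both models under each scaling.

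Wipi1 and Wipi2 code for proteins that bind the lipid made by the Beclin 1 complex. Wipi1 had 12.4 and 10.01 FPKM in doxycycline MycT tumours, against 2.795 and 4.93 FPKM in untreated MycT tumours. Both doxycycline libraries exceeded both untreated ones, and Wipi1 rose in the joint MycT fit (log2 change 1.36 ± 0.36 (SE), limma adjusted p = 0.0303), but not in the MycT table alone (adjusted p = 0.0977). In KrasT it had 19.8, 20.5 and 15.96 FPKM in doxycycline KrasT tumours, against 16.2, 22.7 and 29.1 FPKM in untreated KrasT tumours, with overlap and a change of -0.23 ± 0.29 (SE), limma adjusted p = 0.615. The difference between the models was -1.59 ± 0.46 (SE), limma adjusted p = 0.119. Ulk2, a kinase that starts autophagy, had 8.82 and 6.54 FPKM in doxycycline MycT tumours, against 2.62 and 3.61 FPKM in untreated MycT tumours. Its KrasT values were 12.7, 9.17 and 8.14 FPKM after doxycycline, against 13.7, 6.98 and 4.84 FPKM untreated. Ulk2 was higher without overlap in MycT, overlapped in KrasT, and passed in neither table. The related kinase Ulk1 had 13.04, 11.6 and 13.6 FPKM in doxycycline KrasT tumours, against 7.53, 9.12 and 11.02 FPKM in untreated KrasT tumours. In the MycT model there were 10.2 and 11.02 FPKM in doxycycline tumours, against 5.105 and 7.77 FPKM in untreated MycT tumours, so Ulk1 was higher without overlap in both models, with changes of 0.44 and 0.67 that did not pass. The remaining genes, Atg7 (an activating enzyme of both conjugation reactions), Atg16l1 (which places the enzyme on membranes) and Wipi2, had changes of -0.44, -0.30 and -0.21 in KrasT and 0.83, -0.38 and -0.15 in MycT, and passed in neither. Scaled to genes of at least 5 FPKM, Atg16l1 and Wipi2 turned positive in both models.

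The regulators were led by Tfeb, a transcription factor that switches on lysosome and autophagy genes. It had 12.6, 10.5 and 12.7 FPKM in doxycycline KrasT tumours, against 3.800, 7.102 and 9.08 FPKM in untreated KrasT tumours. The MycT values were 7.13 and 10.5 FPKM in doxycycline MycT tumours, against 2.21 and 1.79 FPKM in untreated MycT tumours. No groups overlapped in either model. Tfeb rose in the joint MycT fit (log2 change 1.69 ± 0.39 (SE), limma adjusted p = 0.0188) and had the same change with adjusted p = 0.0719 in the MycT table alone by limma. In KrasT its change was 0.82 ± 0.34 (SE), limma adjusted p = 0.139. Tfe3, a relative of TFEB, had 11.2 and 17.99 FPKM in doxycycline MycT tumours, against 7.18 and 5.24 FPKM in untreated MycT tumours, higher without overlap, while KrasT tumours had 23.2, 12.98 and 17.3 FPKM after doxycycline, against 15.1, 24.3 and 23.8 FPKM untreated. Neither change of Tfe3 passed (limma adjusted p = 0.643 in KrasT and 0.137 in MycT). Mcoln1, the lysosomal calcium channel mucolipin 1, had 21.01, 9.85 and 13.5 FPKM in doxycycline KrasT tumours, against 18.6, 17.7 and 12.2 FPKM in untreated KrasT tumours. The MycT model had 11.3 and 13.1 FPKM in doxycycline tumours, against 9.498 and 10.03 FPKM in untreated MycT tumours. Groups overlapped in KrasT and lay apart in MycT, and its changes of -0.16 in KrasT and 0.29 in MycT did not pass. Mitf, another MiT/TFE factor and not one of the 37 genes, rose in KrasT, with 7.04, 2.87 and 3.67 FPKM in doxycycline KrasT tumours, against 1.25, 0.333 and 0.355 FPKM in untreated KrasT tumours (log2 change 1.72 ± 0.37 (SE), limma adjusted p = 0.028). Mitf also rose in the joint MycT fit (2.89 and 3.75 FPKM after doxycycline, against 0.463 and 0.536 FPKM untreated, adjusted p = 0.0328).

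**Figure D3:**
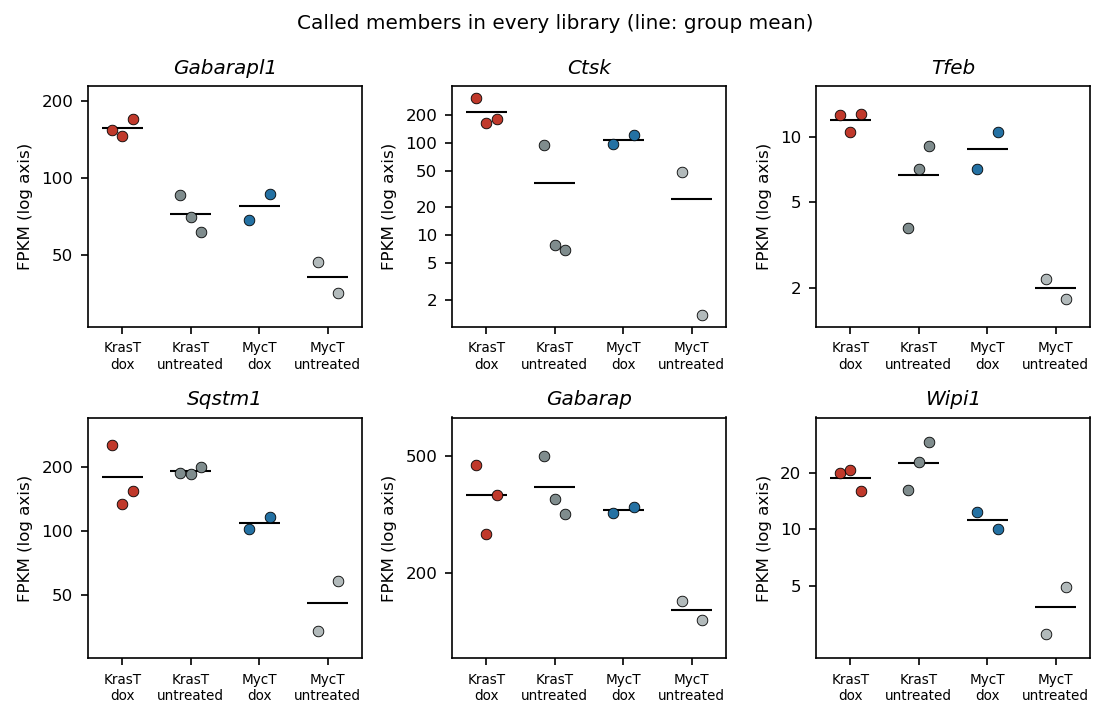
FPKM on log axes of the 6 genes that passed in their own table or the joint fit as deposited, with points as libraries and lines as group means, for doxycycline and untreated KrasT (3 libraries each) and MycT (2 each). Gabarapl1, Ctsk and Tfeb have doxycycline points above all untreated points in both models, whereas Sqstm1, Gabarap and Wipi1 do so in MycT and overlap in KrasT.

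MiT/TFE factors bind a short element known as CLEAR, and its core was searched for in RefSeq promoter windows (GRCm38.p6, 250 bases before to 50 after the start). A window was given for 31 of the 37 genes. The core TCACGTGA, which reads the same on both strands, was in 5 of 31 (16.1%), against 1.12% of the 27025 gene symbols with a window. The shorter CACGTG, which it contains, was in 10 of 31 (32.3%) against 8.09%. The letters GTAAACA, a forkhead motif, were in 0 of 31 against 4.05%, and TGACNNNGC, part of the antioxidant response element, in 7 of 31 (22.6%) against 14.0%, each on both strands. Other spellings of these motifs were not searched. The 5 windows with the core belong to Mcoln1, Cln3, Ctsd, Ctsa and Gla, and 40 bases around the core are shown, on the gene's strand with the core in capitals, because these letters are what the promoters share. They lie at chr8:3500457-3500496, plus strand, chr7:126583335-126583374, minus strand, chr7:142387903-142387942, minus strand, chr2:164833744-164833783, plus strand, and chrX:134601210-134601249, minus strand. Ctsa and Gla hold a second core close by.
Mcoln1: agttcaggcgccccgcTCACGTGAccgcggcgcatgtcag
Cln3: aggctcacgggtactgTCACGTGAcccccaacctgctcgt
Ctsd: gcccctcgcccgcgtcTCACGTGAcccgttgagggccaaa
Ctsa: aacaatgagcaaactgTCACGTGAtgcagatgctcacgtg
Gla: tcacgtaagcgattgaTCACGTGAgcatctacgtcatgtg
The 5 genes with the core had a median log2 change of 0.06 in KrasT and 0.73 in MycT, against -0.12 and 0.97 for the 26 without it. None of the 5 passed in either model as deposited, and Cln3 alone was called, higher, in the joint MycT fit scaled to genes of at least 5 FPKM. A match is a description of these letters and not of binding.

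Of the 6 lysosomal membrane and lipid transfer genes, 0 passed in either table or in the joint fit as deposited. Scaled to genes of at least 5 FPKM, the joint MycT fit called 2 of them higher, Npc1 and Cln3. Psap, whose product is cut into the saposins that help enzymes reach lipids, was the most abundant. It had 2947, 393 and 703 FPKM in doxycycline KrasT tumours, against 545, 391 and 319 FPKM in untreated KrasT tumours. In MycT it had 961 and 1769 FPKM in doxycycline MycT tumours, against 485 and 258 FPKM in untreated MycT tumours. KrasT groups overlapped and MycT groups did not, and the changes were 1.19 ± 0.71 (SE), limma adjusted p = 0.283 in KrasT and 1.88 ± 0.51 (SE), limma adjusted p = 0.0911 in MycT. Doxycycline KrasT replicate 1 was far above the other KrasT libraries. It had the highest macrophage, fibroblast and adipocyte marker sums and the most Rn45s of its model. Without it the KrasT change of Psap was 0.37. The part of these in the Psap value was not tested. Lamp1, a glycoprotein of the lysosomal membrane, had 546, 210.4 and 222 FPKM in doxycycline KrasT tumours, against 363, 258 and 281 FPKM in untreated KrasT tumours. Levels in MycT were 291 and 324 FPKM in doxycycline tumours, against 346 and 101 FPKM in untreated MycT tumours, with overlap in both models. Npc1, the transporter that passes cholesterol out of lysosomes, had 22.99, 10.3 and 12.3 FPKM in doxycycline KrasT tumours, against 18.1, 26.1 and 26.6 FPKM in untreated KrasT tumours. Its MycT levels were 9.57 and 10.7 FPKM in doxycycline MycT tumours, against 5.03 and 3.58 FPKM in untreated MycT tumours, higher without overlap. The KrasT change of Npc1 minus its MycT change was -1.75 ± 0.52 (SE), limma adjusted p = 0.122. Lamp2, Npc2 (a cholesterol carrier) and Cln3 (a membrane protein mutated in a lysosomal storage disease) had changes of -0.40, -0.42 and -0.01 in KrasT and 0.73, -0.19 and 0.81 in MycT, none of which passed.

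The cathepsins, proteases of the lysosome, held the largest change of the 37 genes. Ctsk, best known as the collagen-cutting protease of osteoclasts and also made by fibroblasts and macrophages, had 308, 166 and 180.3 FPKM in doxycycline KrasT tumours, against 94.9, 7.89 and 6.95 FPKM in untreated KrasT tumours. Its mean was 218 ± 77.9 FPKM after doxycycline, against 36.6 ± 50.5 FPKM untreated (SD, n = 3 each). Groups did not overlap and Ctsk rose (log2 change 3.48 ± 0.94 (SE), limma adjusted p = 0.048), though untreated replicate 1 stood well above the others of its group. Without that library the change was 4.65 (adjusted p = 0.00126), and the call held in that fit alone of the 6 without 1 library, with adjusted p from 0.00126 to 0.148. The MycT values were 96.8 and 121 FPKM in doxycycline MycT tumours, against 48.6 and 1.37 FPKM in untreated MycT tumours, without overlap (log2 change 3.33 ± 1.46 (SE), limma adjusted p = 0.188). Among 12 fibroblast markers 9 rose in KrasT, where 8.46% of all genes were called higher. Without doxycycline replicate 1 there were 7, where 7.91% of all genes were called in either direction. Their summed FPKM was 9719.97, 4288 and 4229 for all 12 markers in doxycycline tumours, against 894, 343 and 498 in untreated ones. In MycT that sum was 1821 and 2588 after doxycycline, against 482 and 40.8 untreated. Summed FPKM of 7 osteoclast and giant cell markers was 361.6, 29.5 and 54.9 in doxycycline KrasT tumours, against 210.2, 63.1 and 35.96 in untreated ones, and 129.6 and 192 in doxycycline MycT tumours, against 117 and 32.8 in untreated ones. Of these markers Dcstamp, Ocstamp, Oscar and Calcr had at most 2.93 FPKM in any library, and the other 3, Acp5, Atp6v0d2 and Mmp9, passed the filter on low values. Their changes were positive for 2 of 3 in KrasT and 3 of 3 in MycT, and none passed. The part of fibroblast, macrophage and osteoclast RNA in the change of Ctsk was not tested. The 100 bases before its start site, shown because it was called in KrasT, lie at chr3:95499110-95499209, plus strand of GRCm38.p6, and its window too holds none of the 4 motifs.
Ctsk: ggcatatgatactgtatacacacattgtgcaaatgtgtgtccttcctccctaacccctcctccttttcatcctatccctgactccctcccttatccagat

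Ctss, a protease of antigen-presenting cells, had 1231, 160.3 and 287 FPKM in doxycycline KrasT tumours, against 243, 42.2 and 58.8 FPKM in untreated KrasT tumours. In MycT it had 572 and 855 FPKM in doxycycline MycT tumours, against 471 and 44.5 FPKM in untreated MycT tumours. Groups overlapped in KrasT and did not in MycT, and neither change passed (2.17 in KrasT and 2.26 in MycT). Ctss rose in KrasT without untreated replicate 1 (change 2.92, limma adjusted p = 0.0369). That library had the highest macrophage, fibroblast and skeletal muscle marker sums of the untreated KrasT group, and their part was not tested. Ctsd, the main aspartic protease of lysosomes, had 2810.4, 375 and 632 FPKM in doxycycline KrasT tumours, against 722, 632 and 480.3 FPKM in untreated KrasT tumours. For MycT these were 979 and 2032 FPKM in doxycycline tumours, against 1292 and 550.1 FPKM in untreated MycT tumours, and both models overlapped. Ctsl, a cysteine protease, had 1512, 178 and 241 FPKM in doxycycline KrasT tumours, against 517, 707 and 731 FPKM in untreated KrasT tumours. 1 doxycycline library of Ctsl was above all untreated ones and the other two were below them. Without doxycycline replicate 1 Ctsl fell, by 1.63 on the log2 scale (limma adjusted p = 0.0374), against a change of -0.68 ± 0.77 (SE), limma adjusted p = 0.577 with all libraries. Its MycT levels were 447 and 648 FPKM in doxycycline MycT tumours, against 372 and 214 FPKM in untreated MycT tumours, higher without overlap. Of the other cathepsins, Ctsa, Ctsb and Ctsz had changes of 0.67, 0.62 and 0.53 in KrasT, and Ctsc had -0.85. In MycT these were 0.73, 1.10, 1.02 and 1.16, and none passed. In all 8 cathepsins the highest doxycycline KrasT value was that of replicate 1.

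**Figure D4:**
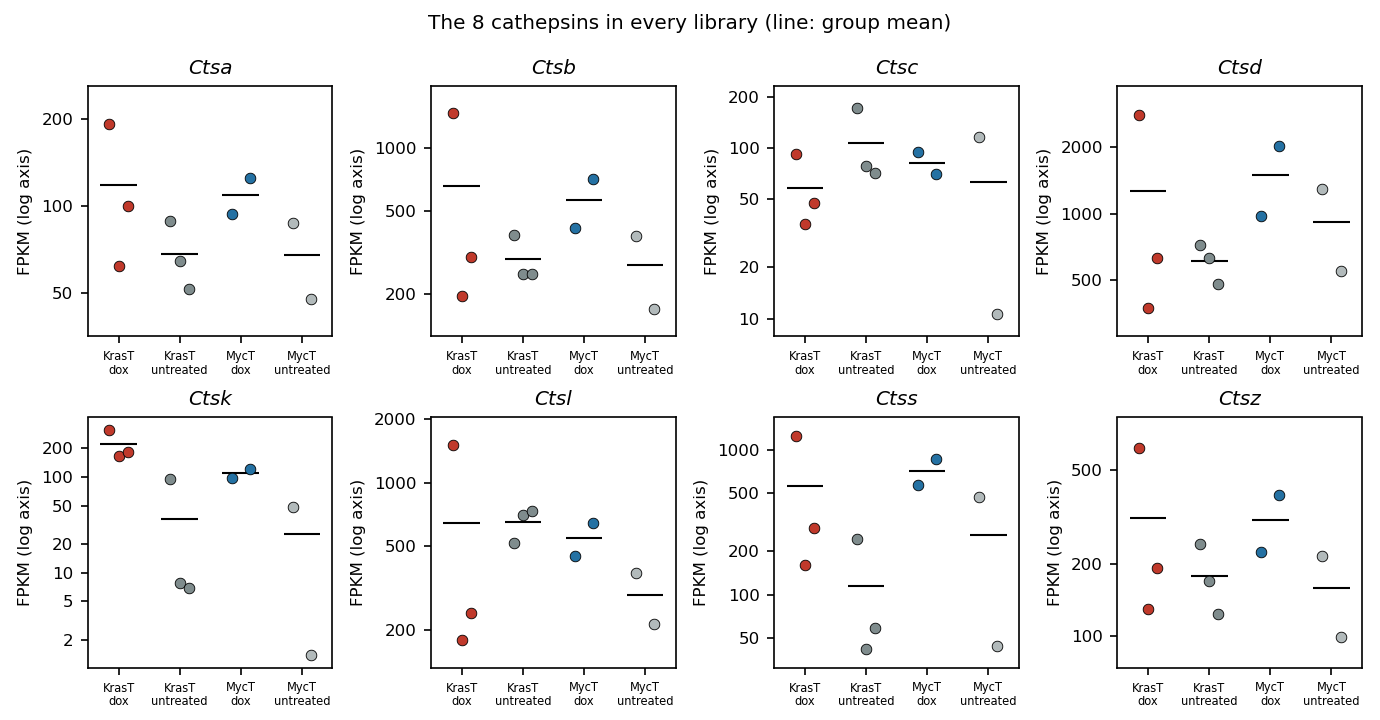
FPKM of the 8 cathepsins on log axes (scales differ by panel), with points as libraries and lines as group means, for doxycycline and untreated tumours of both models. Ctsk separates the groups in both models, and the highest doxycycline KrasT point of each panel is replicate 1, which reaches 2810.4 FPKM for Ctsd.

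Of the 5 glycosidases and lipases, 0 passed in either table as deposited. Gaa, which breaks down glycogen in lysosomes, had 69.8, 32.8 and 44.1 FPKM in doxycycline KrasT tumours, against 18.4, 32.6 and 17.1 FPKM in untreated KrasT tumours. The MycT values were 26.1 and 26.6 FPKM in doxycycline MycT tumours, against 14.5 and 14.01 FPKM in untreated MycT tumours. No groups overlapped, by a narrow margin in KrasT, with changes of 1.06 ± 0.38 (SE), limma adjusted p = 0.0973 in KrasT (0.0397 scaled to genes of at least 5 FPKM and 0.0495 under quantile normalization) and 0.84 ± 0.30 (SE), limma adjusted p = 0.137 in MycT. Hexa, a subunit of the enzyme that trims gangliosides, had 329.6, 101 and 157 FPKM in doxycycline KrasT tumours, against 159, 52.1 and 29.4 FPKM in untreated KrasT tumours. In the MycT model there were 134 and 177 FPKM in doxycycline tumours, against 103 and 35.5 FPKM in untreated MycT tumours, higher without overlap. Lipa, the acid lipase for cholesterol esters, had 132, 22.7 and 29.96 FPKM in doxycycline KrasT tumours, against 15.8, 25.7 and 19.7 FPKM in untreated KrasT tumours. Its MycT values were 39.5 and 44.02 FPKM after doxycycline, against 25.3 and 11.4 FPKM untreated. Neither gene passed in KrasT (limma adjusted p = 0.185 for Hexa and 0.261 for Lipa). Neu1, a sialidase, was the one of the 5 with a negative KrasT change. It had 19.3, 11.8 and 13.3 FPKM in doxycycline KrasT tumours, against 14.3, 46.4 and 42.2 FPKM in untreated KrasT tumours, with overlap through untreated replicate 1. Without that library Neu1 fell, by 1.55 on the log2 scale (limma adjusted p = 0.0104), and Hexa rose, by 2.12 (adjusted p = 0.0266). In MycT Neu1 had 13.5 and 14.4 FPKM after doxycycline, against 12.9 and 11.6 FPKM untreated. Gla, which removes terminal galactose, had changes of 0.06 in KrasT and -0.27 in MycT, and in KrasT its doxycycline values were 23.6, 3.44 and 4.22 FPKM, against 9.43, 5.602 and 6.26 FPKM untreated.

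Autophagy machinery was then set against the hydrolases. In KrasT the 15 machinery genes had a median log2 change of -0.23 and the 13 hydrolases one of 0.62, where all genes tested had -0.10. Positive changes numbered 4 of 15 among machinery genes and 10 of 13 among hydrolases. In MycT the medians were 0.67 and 1.02, where all genes had 0.04, with 8 machinery genes positive and 7 negative and 12 hydrolases positive and 1 negative. Machinery minus hydrolases was therefore -0.84 in KrasT and -0.35 in MycT. The KrasT value rested on 1 library. Without doxycycline replicate 1 the hydrolase median was -0.12, the machinery median -0.29 and the gap -0.17. In MycT the gap was 0.01 without untreated replicate 2 and -1.18 without untreated replicate 1. Scaled to genes of at least 5 FPKM, the KrasT machinery median turned to 0.19, which is -0.09 relative to the median of all genes, and the gap was -0.86. Under quantile normalization that median was 0.03 and the gap -1.24. The MycT gap was -0.40 scaled to genes of at least 5 FPKM and -1.11 under quantile normalization. Its size relative to the KrasT gap thus depended on the scaling.

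Values by library show the spread behind these medians. Mean log2(FPKM + 1) of the machinery was 5.43, 5.29 and 5.30 in doxycycline KrasT tumours, against 5.69, 5.32 and 5.39 in untreated ones. For the hydrolases it was 8.08, 6.06 and 6.54 in doxycycline KrasT tumours, against 6.65, 6.07 and 5.84 in untreated ones. The machinery values lay close together over the 6 KrasT libraries, and the hydrolase values were spread by doxycycline replicate 1. In MycT the machinery mean was 5.09 and 4.97 after doxycycline, against 4.73 and 4.76 untreated, without overlap. The hydrolase mean there was 6.77 and 7.17 after doxycycline, against 6.59 and 5.11 untreated, also without overlap. In both models the hydrolase mean was highest in the library with the most macrophage RNA, doxycycline replicate 1 in KrasT and doxycycline replicate 2 in MycT, and lowest in untreated KrasT replicate 3 and untreated MycT replicate 2. The libraries highest in hydrolases also had the most Rn45s and the highest adipocyte and fibroblast sums of their model. Elsewhere the orders of both values differed in part. Untreated KrasT replicate 1, with 1654 FPKM of macrophage markers, exceeded doxycycline replicates 2 and 3, with 1935 and 3114 FPKM, in hydrolases. Untreated MycT replicate 1, with 3870.4 FPKM, lay below doxycycline replicate 1, with 3195 FPKM. The lowest KrasT macrophage sum was in untreated replicate 2. As a share of all FPKM, the hydrolases took 1.57%, 0.287% and 0.392% in doxycycline KrasT tumours, against 0.263%, 0.239% and 0.239% in untreated ones, and 0.564% and 0.957% in doxycycline MycT tumours, against 0.208% and 0.108% in untreated ones. The machinery share was also higher without overlap, with 0.243%, 0.211% and 0.209% in doxycycline KrasT tumours, against 0.160%, 0.129% and 0.152% in untreated ones. In MycT it was 0.171% and 0.167% after doxycycline, against 0.0599% and 0.0684% untreated. Total FPKM, by which these shares are divided, was lower in every doxycycline library than in untreated ones of its model. Macrophage markers were positive in 15 of 15 in KrasT, where 3 rose, with a median of 1.98, and in 14 of 14 tested in MycT, with a median of 1.51. Of all genes tested, 8.46% were called higher in KrasT. The part of macrophage RNA in the hydrolase values was not tested.

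**Figure D5:**
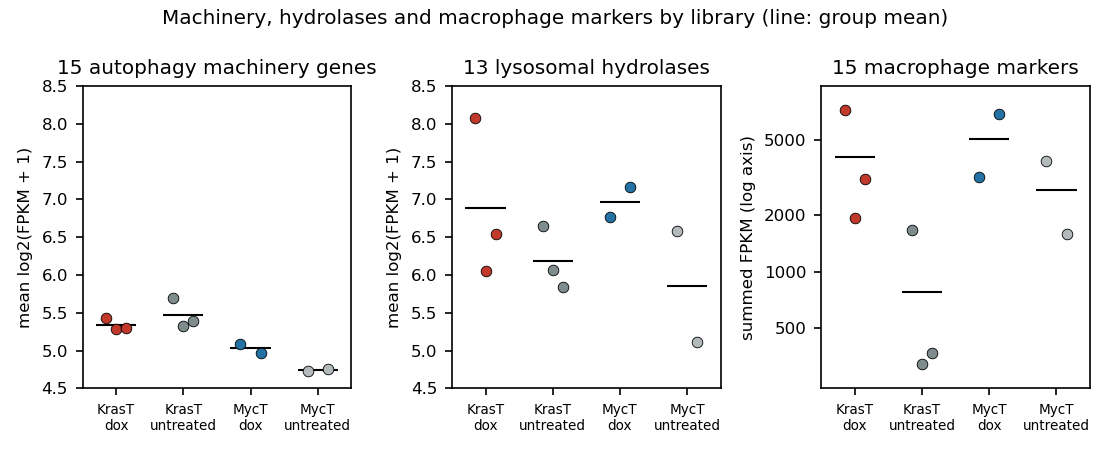
Mean log2(FPKM + 1) per library of the 15 machinery genes (left) and the 13 hydrolases (middle), and summed FPKM of 15 macrophage markers on a log axis (right), with lines as group means. Machinery lies between 4.73 and 5.69 in all 10 libraries, and hydrolases reach 8.08 in doxycycline KrasT replicate 1, where the macrophage sum is 7189.8 FPKM.

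Other genes of the same pathways were counted from lists chosen by role. As a background, 8.46% of all genes were called higher and 8.25% lower in KrasT, and 8.11% and 12.3% in the joint MycT fit. Positive changes numbered 5751 of all 12696 genes in KrasT and 6618 of 12834 in MycT. Of 31 further autophagy machinery genes, 0 rose and 2 fell in KrasT. Bnip3, a hypoxia-induced receptor for mitochondria, had 40.6, 38.7 and 25.7 FPKM in doxycycline KrasT tumours, against 169.9, 174 and 97.3 FPKM in untreated KrasT tumours (log2 change -2.02 ± 0.32 (SE), limma adjusted p = 0.0149). It also fell in the joint MycT fit, with 33.7 and 29.9 FPKM after doxycycline, against 117 and 317 FPKM untreated (adjusted p = 0.0109). Vamp8, a protein that fuses autophagosomes with lysosomes, fell in KrasT by 0.94 on the log2 scale (limma adjusted p = 0.0435). The receptor Optn rose in the joint MycT fit (8.86 and 5.14 FPKM after doxycycline, against 2.99 and 0.913 FPKM untreated, adjusted p = 0.0454). In the 6 fits without 1 library the Bnip3 call held in 4 and the Vamp8 call in 1. The median of this list was -0.22 in KrasT and 0.31 in MycT. Scaled to genes of at least 5 FPKM the KrasT median was 0.20 and the Vamp8 call was lost, as it was under quantile normalization.

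Of 29 further hydrolases and activators, 2 rose and 1 fell in KrasT, with a list median of 0.59. Arsb, a sulfatase for dermatan sulfate, had 23.1, 9.12 and 13.4 FPKM in doxycycline KrasT tumours, against 2.58, 1.705 and 1.302 FPKM in untreated KrasT tumours (log2 change 2.43 ± 0.39 (SE), limma adjusted p = 0.0147). Ctsf, another cysteine protease, rose by 2.38 (limma adjusted p = 0.0383). Asah1, the acid ceramidase, fell, with 90.7, 70.7 and 59.3 FPKM in doxycycline KrasT tumours, against 189, 193 and 206 FPKM in untreated KrasT tumours (log2 change -1.42 ± 0.24 (SE), limma adjusted p = 0.0162). These calls held in 3 (Arsb), 1 (Ctsf) and 2 (Asah1) of the 6 fits without 1 library. In MycT the list median was 1.01, 25 of 29 changes were positive, and the joint fit called 2, Gm2a and Ids, both higher. Gm2a, an activator of ganglioside breakdown, had 34.2 and 49.4 FPKM in doxycycline MycT tumours, against 12.8 and 8.16 FPKM in untreated MycT tumours. Scaled to genes of at least 5 FPKM, the joint MycT fit called 10 of 29 higher with 29 of 29 positive, and the KrasT fit called 5 higher and 1 lower. Under that scaling the joint MycT fit called 1879 of all 12073 genes higher, and 7852 were positive. In KrasT 1589 of all 12696 genes were called higher and 353 lower, and 8100 were positive. Under quantile normalization Arsb and Ctsf kept their KrasT calls and Asah1 did not.

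The 16 proton pump subunits, which acidify the lysosome and other vesicles, had 0 called in either model. In KrasT 15 of 16 changes were negative, with a median of -0.56, and by limma the smallest adjusted p were 0.0681 for Atp6v1e1 (108, 67.9 and 55.1 FPKM in doxycycline KrasT tumours, against 154, 143 and 136 FPKM in untreated KrasT tumours) and 0.0831 for Atp6v1h. Both fell without doxycycline replicate 1, where 2 of 16 passed. The count of negative changes depended on scaling, with 10 of 16 negative when scaled to genes of at least 5 FPKM and 9 of 16 under quantile normalization. Relative to the median of all genes, the KrasT pump median was -0.46 as deposited and -0.41 when scaled to genes of at least 5 FPKM. Under quantile normalization it was 0.007. In MycT 8 of 16 were negative, and Atp6v0a1 had the smallest p there (12.2 and 18.9 FPKM after doxycycline, against 2.12 and 5.79 FPKM untreated, adjusted p = 0.0971). Of 14 other membrane proteins 1 rose in KrasT, Cln6 by 0.92 (limma adjusted p = 0.0487), which is an endoplasmic reticulum protein needed to pass enzymes on to lysosomes and whose call held in 1 of the 6 fits without 1 library. In MycT 0 of them passed. Of 9 sorting receptors and tagging enzymes 0 passed in either model, led in KrasT by Gga3 (adjusted p = 0.0722) and Gnptab (adjusted p = 0.0923), with 8 of 9 changes positive. Scaled to genes of at least 5 FPKM, 4 of these 9 were called higher in KrasT, among them Gga3 and Gnptab, with 9 of 9 positive, and 2 of the 14 membrane proteins were called. Of all 12696 genes, 1589 were called higher in KrasT under that scaling and 8100 were positive.

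Of 19 nutrient sensing genes, 2 rose in KrasT, Mitf (described with the regulators) and Rragd. Rragd codes for a GTPase that brings mTORC1 to the lysosome and had 3.69, 4.46 and 1.78 FPKM in doxycycline KrasT tumours, against 0.825, 0.187 and 0.307 FPKM in untreated KrasT tumours (log2 change 1.55 ± 0.34 (SE), limma adjusted p = 0.0283). In MycT Rragd had 6.01 and 2.23 FPKM after doxycycline, against 0.882 and 1.44 FPKM untreated, and did not pass (adjusted p = 0.107 in the joint fit). In the fits without 1 KrasT library the call of Mitf held in 2 of 6 and that of Rragd in 1. Under quantile normalization neither was called in KrasT. The joint MycT fit called Mitf and the forkhead factor Foxo1, both higher. Foxo1 had 7.99 and 6.54 FPKM in doxycycline MycT tumours, against 2.897 and 1.303 FPKM in untreated MycT tumours (adjusted p = 0.0295). In the 10 joint fits without 1 library the MycT calls held in 8 (Bnip3), 2 (Optn), 2 (Gm2a), 7 (Ids), 5 (Mitf) and 6 (Foxo1). The lists were chosen with results of these data known, so their counts are a description.

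The changes in the 2 models were last compared by the interaction term over all 10 libraries. By limma 0 of 37 genes passed, where 0.24% of all genes did. At an unadjusted p under 0.05 the count was 6 of 37 (16.2%), against 19.9% of all genes. Under library weights 4 of 37 passed, Neu1, Npc1, Sqstm1 and Wipi1, where 12.2% of all genes did. The difference was largest for Ctsc, at -2.01 ± 1.21 (SE), limma adjusted p = 0.388, and Npc1, at -1.75. For Gabarapl1 and Ctsk, called in KrasT, the differences were 0.21 and 0.15, with SE of 0.37 and 1.86. A p that misses the threshold does not show that the models changed alike. The median change of the whole list was -0.09 in KrasT and 0.84 in MycT, a description with no test of its own.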

How the data were processed

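Total RNA from whole tumours was sequenced in 10 libraries (TruSeq RNA kit, HiSeq2000, per the labels' protocols). The authors deposited FPKM (read fragments divided by gene length and library size) in 1 table per model. Cutadapt, TopHat and the mm9 build are named per the submitters' processing notes. For the FPKM step, the program, annotation and use of strand are not given in the sources here. Groups came from the labels and columns were matched by animal number. 1 untreated MycT column has a number that matches no label and was used as an untreated MycT replicate, called replicate 1 as a name alone. Of 23951 rows per table, 27 with date-like symbols were left out. Read depth is unknown. Steps between values of genes under 0.15 FPKM put the deepest library at 1.57 times the shallowest in KrasT and 1.61 times in MycT. Every tumour carries a different animal number in its label, so the libraries differ by animal. The tumours need not be independent, because descent from 1 primary tumour is not stated. The spread limma uses for a gene also draws on other genes, and the joint fit shares it between the models.

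A gene was tested if 3 KrasT libraries, or 2 MycT libraries, had 1 FPKM or more. limma 3.58.1 (R 4.3.3) compared log2(FPKM + 1) within a table, two-sided, by eBayes with a mean trend and Benjamini-Hochberg adjustment over all tested genes, and the difference between models as an interaction over both tables. Exact permutation could reach p = 0.1 with 3 against 3 and 0.333 with 2 against 2. The steps were tested on simulated data, with large changes planted in genes of high level and limited spread. Recovery of changes as small as most of those reported was not tested. Alternatives were a pseudocount of 0.1, no filter, library weights, a joint fit, quantile normalization, median-ratio scaling, a filter at a mean of 5 FPKM, a spread without a trend, a robust spread, leaving out each library, and leaving out libraries with Rn45s above 10000 FPKM. Median-ratio scaling over genes of at least 5 FPKM in every library, and the alternatives of the joint MycT fit, were added after seeing the data. Named with values in every library were genes called in their own table or the joint fit as deposited and, per role, the 2 of highest mean FPKM and the 2 of smallest p per table. Gabarapl2, Ulk1 and Atg12 were added after their values were seen. Of each other list, called genes or the 2 of smallest p were named, and not all of these are given. The 37 genes and all lists were chosen with earlier results of these data known. Promoter windows came from RefSeq on GRCm38.p6, and no coordinate was carried between builds. Python 3.11.15 with matplotlib 3.10.9 drew the figures.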

Additional observations from a re-analysis of the deposited data

How the results depend on the processing

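Of the 37 genes, 2 were called in KrasT. Under the joint fit, a mean FPKM of at least 5, no filter, a pseudocount of 0.1, robust spread and spread without a trend it was 1 each, Gabarapl1 in every case. Without the libraries of high Rn45s it was also 1, Ctsl, under library weights 11, and under quantile normalization and scaling to genes of at least 5 FPKM 3 each, with Gaa added. Leaving out each library gave 0 to 6. In MycT the 0 calls became 4 in the joint fit and were 0 under every other alternative run. For the difference between models the 0 calls became 4 under library weights (Neu1, Npc1, Sqstm1 and Wipi1) and 0 to 3 when each library was left out. The 4 calls of the joint MycT fit became 12 when scaled to genes of at least 5 FPKM, and 0 to 10 without 1 library. The MycT gap between machinery and hydrolases ranged from -1.18 to 0.0099 without 1 library, and the KrasT gap from -1.36 to -0.17. Neither changed sign under a scaling, but under quantile normalization the MycT gap was -1.11, in place of -0.35, and the KrasT gap -1.24, in place of -0.84. The cause of these shifts was not tested. No call of a single gene turned round under any alternative. Of the values of single genes under alternatives, 547 of the KrasT values kept direction and side of the threshold, 17 gained and 18 lost a call, and 47 turned direction without a call. These counts overstate stability. The joint fit, the changed filters, the robust spread and the spread without a trend leave a log2 change as it is, so no direction could turn there. In KrasT, leaving out libraries of high Rn45s is the same fit as leaving out doxycycline replicate 1 and is counted again. No paired analysis was possible because the labels give animal numbers that differ between groups. With 2 or 3 tumours per group small changes could not be resolved.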
